A study of Drosophila mojavensis with 137 samples.

Results

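Mated and virgin females of the Las Bocas population of Drosophila mojavensis, reared on fermented agria cactus, were compared on 17 of the 137 arrays of the series. The arrays were chosen by their titles, which give population, cactus, sex, mating state and development time, and no measured value entered the choice. There were 6 mated arrays, 2 each from flies that took 14, 15 and 16 days from egg to adult, and 11 virgin arrays, with 2, 5 and 4 at those times. All flies were wild-type, came from the LB09 stock collected at Las Bocas in Sonora, and gave total RNA from the whole organism. The series as a whole crossed this population and Punta Prieta (PP08) with agria and organ pipe cactus, both sexes, both mating states and development time. Mated arrays carried Cy3-labelled cDNA on a 1-colour NimbleGen design that reads 14528 transcripts, as did all others. The labels do not state the time between mating and collection, the source of the males or the number of flies behind an array. No label says that replicates came from separate cultures, so each p-value below reflects the spread between arrays alone, which may be technical. Whole flies hold many tissues, and fewer cells of a type and less RNA per cell cannot be told apart.

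Drosophila mojavensis is a desert fly whose larvae feed in rotting columnar cacti. Mainland Sonoran populations breed chiefly in organ pipe and Baja California populations chiefly in agria. In fruit flies, mating delivers sperm together with seminal fluid proteins, which raise egg laying, lower the readiness to mate again and change transcription in the female reproductive tract and other tissues. In this species, material from the ejaculate is known to be taken up into the female body and eggs. The files identify each transcript by an ID alone, and a look-up of the 14528 IDs among the 15130 genes of a RefSeq table found 0. Transcripts are therefore described by ID, by their sex bias in virgin flies, by their level and by their behaviour in other comparisons, without gene names or sequences.

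Log2 expression values are used as the authors deposited them. They ranged from 5.842 to 15.89 on the 17 arrays, array medians lay between 11.29 and 11.46, 0 columns were identical, and replicates within a group correlated at 0.9101 to 0.9939. Precision is limited by how many arrays there are. The description of virgin 16 day replicate 3 gives 15 days, against its title and characteristics, and it was kept at 16 days.

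Mated 14 day replicate 1 and both mated arrays of 15 days stood apart from the other 14 arrays before any transcript was compared. The standard deviation (SD) of the log2 values over all transcripts was 1.597, 1.638 and 1.641 on these 3 arrays, here called narrow. It was 1.748, 1.767 and 1.775 on the other mated arrays and ranged from 1.728 to 1.866 on the virgin arrays, with a median of 1.771. The narrow arrays lay below every other array of the comparison, and the other mated arrays lay within the virgin range. These 3 arrays were singled out for their spread, so it is given without a test. The narrowing touched both ends of the scale. The 5th percentile of the narrow arrays was 8.688 to 8.74 against 8.311 to 8.56 in the virgins, and the 95th percentile was 13.94 to 14.03 against 14.07 to 14.14.

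**Figure D1:**
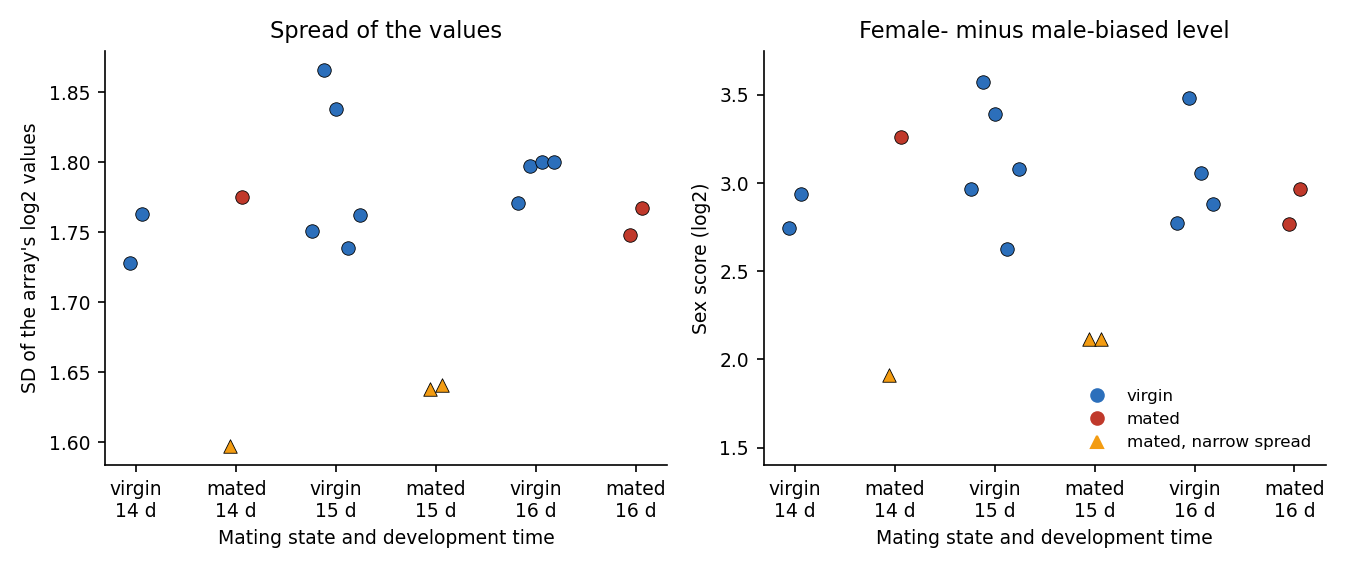
Each point is 1 of the 17 Las Bocas agria female arrays, placed by mating state and development time in days (d). The left axis is the SD of the array's log2 values, and the right axis is the mean log2 level of transcripts female-biased over 4-fold minus that of transcripts male-biased over 4-fold. The 3 narrow mated arrays (triangles) lie below all other arrays on both axes, from 1.597 to 1.641 in SD and from 1.914 to 2.118 in sex score.

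The narrow arrays also read less female. Sex bias was taken from Punta Prieta agria virgins, 11 female and 12 male arrays that are not part of the mating comparison. The sex score was the mean log2 level of the 360 transcripts that were over 4-fold female-biased there minus that of the 1435 over 4-fold male-biased. It was 1.914 to 2.118 on the narrow arrays, 2.768 to 3.259 on the other mated arrays and 2.625 to 3.575 on the virgins, against -3.123 to -2.763 in Las Bocas agria males. All 17 arrays were far from the males, whether narrow or not. The first principal component of the 17 arrays, which held 54.7% of the variance, placed the narrow arrays at -72.05 to -53.31, the other mated arrays at -3.639 to 9.82 and the virgins at -9.793 to 50.94. In total 2637 transcripts (18.2%) were higher on all 3 narrow arrays than on any of the other 14, and 2357 (16.2%) were lower. Against the virgins alone, the 3 narrow arrays were all higher for 2766 transcripts (19%) and all lower for 2569 (17.7%), and the 3 other mated arrays for 33 (0.227%) and 16 (0.11%). The main results are given with and without these 3 arrays.

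Few transcripts differed between mated and virgin arrays at the threshold of 0.05 on the adjusted p (limma with Benjamini-Hochberg adjustment over all 14528 transcripts, development time as a linear term). Over all 17 arrays, 30 transcripts rose (0.206% of those tested) and 11 fell (0.0757%), 41 in all (0.282%). The 30 rises had a median difference of 0.978 on the log2 scale and reached 1.98, and the 11 falls had a median of -0.858 and reached -1.1. Without the 3 narrow arrays, 5 transcripts rose (0.0344%) and 0 fell, although 144 were lower and 173 higher at an unadjusted p below 0.05 in limma. All 5 were among the 30. The median difference over all transcripts was -0.0452 with 17 arrays and -0.00945 with 14.

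The 17-array count lay at the edge of the threshold. An unadjusted p below 0.05 was reached by 5992 transcripts and an adjusted p below 0.10 by 5106, 2790 higher and 2316 lower. With 14 arrays these counts were 317 and 5. Leaving out mated 14 day replicate 1 gave 27 calls, and leaving out mated 14 day replicate 2, mated 16 day replicate 2, virgin 15 day replicate 4 or virgin 16 day replicate 1 gave 6586, 3470, 2172 or 2074. At least 21 of the 30 rises and 6 of the 11 falls were still called whichever array was left out. The 14-array count was 0 without mated 14 day replicate 2 or mated 16 day replicate 2, and 1 to 6 otherwise. The median standard error (SE) of a difference was 0.143 with 17 arrays and 0.16 with 14. The 95% interval of the difference lay wholly within 1 log2 unit of 0 for 13024 transcripts with 17 arrays and for 14258 with 14, so a larger difference lay outside the interval for most transcripts. It lay within 0.5 for 6168 and 8809, so a difference larger than 0.5 lay inside the interval for the others.

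The 2 largest rises and the 2 largest falls of the 17-array fit are described by their arrays. FBtr0162061, the largest rise, was over 4-fold female-biased in virgin flies. Its log2 value was 13.77 at the lowest, 14.13 at the median and 14.3 at the highest in the 6 mated arrays, and 10.48, 12.05 and 13.23 in the 11 virgins. All mated arrays lay above all virgin arrays, and the virgins spread over far more of the scale (SD 0.905, n = 11) than the mated arrays (SD 0.194, n = 6). The difference was 1.98 (SE 0.329, adjusted p = 0.00704 in limma). With 14 arrays it was 1.85 (SE 0.447), and the adjusted p of 0.439 no longer passed. The narrow mated arrays read 13.77 to 14.3 and the other mated arrays 13.97 to 14.16, so the level was as high without the narrow arrays. With 17 arrays it passed whichever array was left out.

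FBtr0162051, also over 4-fold female-biased, had values of 12.91, 13.55 and 14.29 (lowest, median, highest) in the mated arrays and 10.47, 11.92 and 13.14 in the virgins. The groups overlapped, since the highest virgins, both of 16 days, reached the lower mated arrays. It rose by 1.76 (SE 0.344, adjusted p = 0.0271 in limma), and with 14 arrays the difference was 1.56 (SE 0.432, adjusted p = 0.84). Without mated 14 day replicate 1 or mated 15 day replicate 1 the adjusted p was 0.11 or 0.0938, and without virgin 14 day replicate 1 or virgin 15 day replicate 2 or 5 it was 0.0512 to 0.0564.

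The largest falls were transcripts with a male bias of up to 4-fold. FBtr0169904 read 8.3, 9.07 and 9.23 (lowest, median, highest) in the mated arrays and 9.42, 9.94 and 10.61 in the virgins, with no overlap. The difference was -1.1 (SE 0.19, adjusted p = 0.0101 in limma). The narrow arrays held the lowest values, 8.3 to 8.98, and the other mated arrays read 9.16 to 9.23. FBtr0165557 read 9.56, 10.22 and 11.04 in the mated arrays and 10.75, 11.26 and 12.19 in the virgins. Here 1 mated array, 16 day replicate 2, lay within the virgin range. The difference was -1.08 (SE 0.223, adjusted p = 0.0426 in limma). FBtr0169904 passed whichever array was left out, while the adjusted p of FBtr0165557 ran up to 0.155, without mated 15 day replicate 2. With 14 arrays the differences were -0.83 for FBtr0169904 (adjusted p = 0.835) and -0.82 for FBtr0165557 (adjusted p = 0.999).

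**Figure D2:**
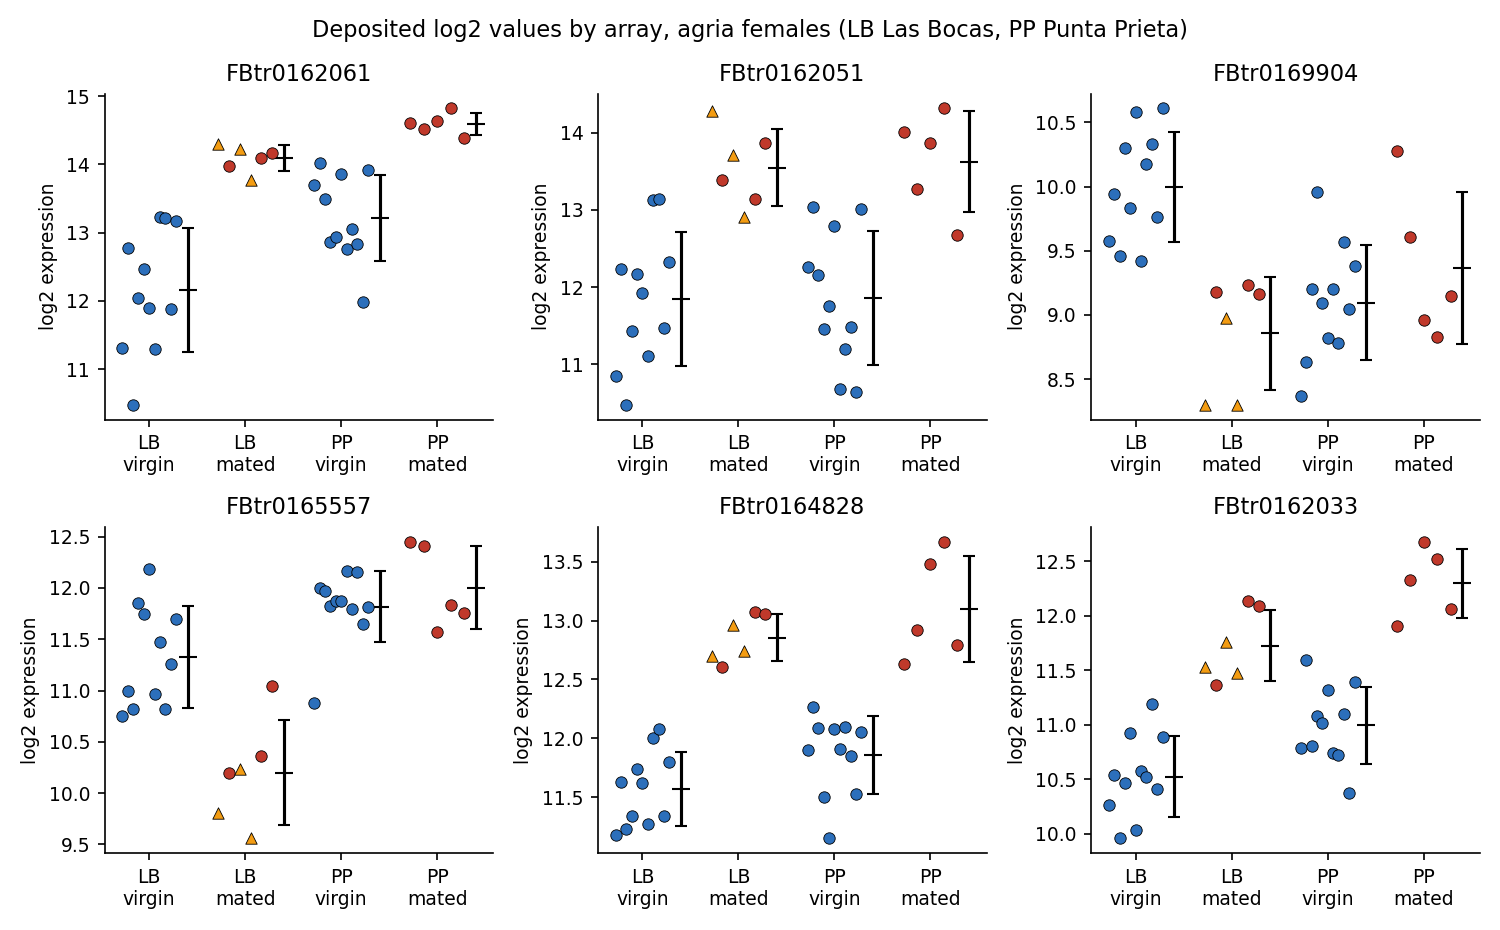
Deposited log2 expression of 6 named transcripts on each agria female array, for virgin (blue) and mated (red, narrow arrays as orange triangles) flies of Las Bocas (LB) and Punta Prieta (PP). Bars give the mean and SD of 11 virgin arrays and of 6 (LB) or 5 (PP) mated arrays. FBtr0162061, FBtr0164828 and FBtr0162033 lie higher in every mated than in every virgin array in both populations, whereas FBtr0169904 and FBtr0165557 are lower in mated flies of Las Bocas and overlap in Punta Prieta.

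The 5 transcripts that rose without the narrow arrays also rose with them. FBtr0164828 had the smallest adjusted p of both fits. It read 12.61, 12.85 and 13.07 (lowest, median, highest) in the mated arrays and 11.18, 11.62 and 12.08 in the virgins, with no overlap. The rise was 1.33 (SE 0.12, adjusted p = 2.03e-05 in limma) with 17 arrays and 1.31 (SE 0.16, adjusted p = 0.00893) with 14. Within development times the difference was 1.25, 1.41 and 1.26 at 14, 15 and 16 days. With 14 arrays, the adjusted p was 0.276 without mated 14 day replicate 2 and 0.134 without mated 16 day replicate 2, and below the threshold when any other array was left out.

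FBtr0162033 read 11.37, 11.65 and 12.14 in the mated arrays and 9.96, 10.52 and 11.19 in the virgins, again without overlap. It rose by 1.25 (SE 0.149, adjusted p = 0.000473 in limma) with 17 arrays and by 1.3 (SE 0.199, adjusted p = 0.0442) with 14. Both transcripts had a female bias of up to 4-fold in virgin flies. The other 3, named after their values were seen, were FBtr0162041, FBtr0169070 and FBtr0172018. With 14 arrays they rose by 1.14 (adjusted p = 0.0463 in limma), 0.85 (adjusted p = 0.048) and 0.73 (adjusted p = 0.0442). With 17 arrays they rose by 1.2, 0.96 and 0.99. FBtr0162041 was over 4-fold and FBtr0169070 up to 4-fold female-biased, and FBtr0172018 had a male bias of up to 4-fold. None of these 5 passed at 14 or at 16 days alone, where 0 of all transcripts did, and all 5 passed at 15 days. There both mated arrays were narrow, and 18.9% of all transcripts passed as higher. With 14 arrays, FBtr0162033 and these 3 lost their calls when mated 14 day replicate 2 or mated 16 day replicate 2 was left out, with adjusted p of 0.356 to 0.724. Most other single arrays also took the adjusted p of some of them above 0.05, to between 0.051 and 0.242.

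As a group, the 30 rises came mostly from transcripts that virgin females hold at a higher level than virgin males. Of the 30, 12 were over 4-fold female-biased, a class of 360 transcripts or 2.48% of all, and 11 were female-biased up to 4-fold, a class of 34%. Among the others, 5 had little sex bias (43.7% of all), 1 a male bias up to 4-fold (9.93%) and 1 a male bias over 4-fold (9.88%). Of the 11 falls, 6 had a male bias up to 4-fold, 3 had little sex bias and 1 each came from the female-biased classes. The rises lay at mean virgin levels from 9.408 to 14.93 (median 11.69) and the falls from 10 to 12.98 (median 11.35), against 6.199 to 15.72 (median 11.36) over all transcripts. In 16 of the 30 rises and 3 of the 11 falls the mated and virgin arrays did not overlap. Over all transcripts the 6 mated arrays lay above all virgins in 23 (0.158%) and below them in 7 (0.0482%).

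Leaving out the narrow arrays shrank the rises less than the falls. The ratio of the 14-array to the 17-array difference had a median of 0.928 (0.554 to 1.12) over the 30 rises and of 0.76 (0.517 to 1.1) over the 11 falls. All 30 remained above 0 with a median of 0.904, and all 11 remained below 0 with a median of -0.704. Both lists were chosen in the fit that holds the narrow arrays, and the fits share 14 arrays, so these figures are a description and were not tested.

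The number of calls differed by development time and was highest where both mated arrays were narrow. At 15 days, where both mated arrays were narrow, 4626 transcripts passed (31.8%), 2750 higher (18.9%) and 1876 lower (12.9%), and without either of those 2 mated arrays 0 did. At 14 days, with 1 narrow and 1 other mated array, 0 passed (0%), with 513 at an unadjusted p below 0.05 in limma and a smallest adjusted p of 0.658. At 16 days, with no narrow array, 0 passed (0%), with 196 at an unadjusted p below 0.05 and a smallest adjusted p of 0.364. The difference of the effect between development times passed for 0 transcripts (limma F test, 1287 at an unadjusted p below 0.05, smallest adjusted p 0.276). Development time and array spread cannot be told apart at 15 days. Among the 17 arrays the slope on development time itself passed for 0 transcripts (0%), with 592 at an unadjusted p below 0.05.

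The 30 rises kept 1 direction at each time. Their median difference was 0.965 at 14 days, 1.14 at 15 days and 0.772 at 16 days, and all 30 were above 0 at each. The 11 falls had medians of -0.812, -1.1 and -0.609 and were all below 0 at each. Both lists were called on these same arrays, which favours 1 direction at each time, so this is a description and not a replication. At 16 days the virgins held 4 arrays and the mated flies 2, none narrow. FBtr0162061 differed by 2.09, 2.36 and 1.26 at the 3 times, and its virgin level was higher at 16 days (11.89 to 13.23) than at 15 days (10.48 to 12.47), with overlap. FBtr0169904 differed by -1.02, -1.28 and -1.03.

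**Figure D3:**
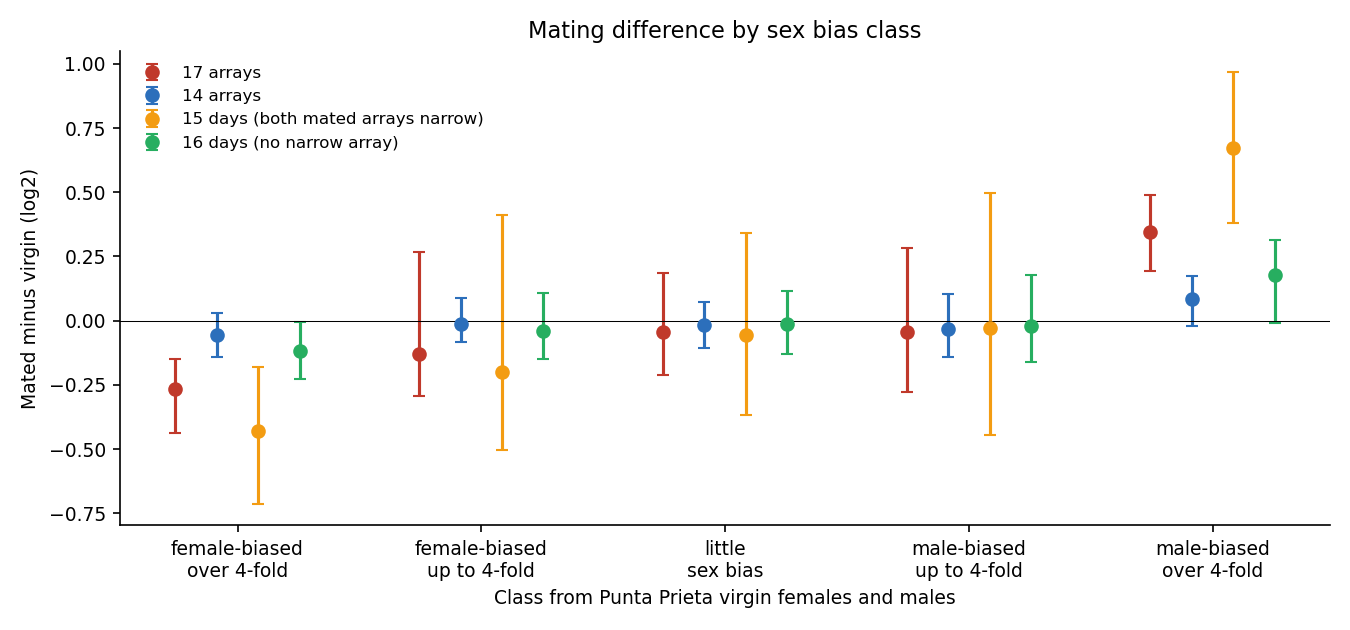
Mated minus virgin difference (log2) of Las Bocas agria females for transcripts grouped by sex bias in Punta Prieta virgins. Points are medians over the transcripts of a class and bars run from the 25th to the 75th percentile, for all 17 arrays, the 14 without narrow arrays, and the contrasts at 15 and 16 days. The male-biased class over 4-fold stands at 0.344 with 17 arrays, 0.671 at 15 days, 0.177 at 16 days and 0.0831 with 14 arrays.

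Male-biased transcripts in fruit flies belong in many cases to testis and accessory gland. Those with a male bias over 4-fold had a median difference above 0, by an amount that moved with the narrow arrays. Their mean level was 10.24 to 10.3 on the narrow arrays. On the other mated arrays it was 9.624 to 9.831, inside the virgin range of 9.331 to 10.16. The shares below count transcripts, which are not independent replicates. The 1435 transcripts with a male bias over 4-fold had a median difference of 0.344 with 17 arrays, and 92.3% of them were above 0, against 45.2% of all transcripts. With 14 arrays the median was 0.0831 and 71.1% were above 0, against 47.2% of all. At 16 days, where no array was narrow, the median was 0.177 and 74.5% were above 0, against 46.9% of all. Of the 1435, 1 passed with 17 arrays, where 0.282% of all transcripts did, and 0 passed with 14 (0.0344% of all). At 15 days 646 passed as higher and 13 as lower, against 18.9% and 12.9% of all transcripts.

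The 360 transcripts with a female bias over 4-fold had a median difference below 0. It was -0.265 with 17 arrays, -0.0575 with 14, -0.431 at 15 days and -0.119 at 16 days, although 12 of them were among the 30 rises. The mean level of the class was 12.18 to 12.41 on the narrow arrays. On the other mated arrays it was 12.5 to 12.88, inside the virgin range of 12.33 to 13.02. After centring each array, scaling to a common SD or quantile normalization, the 17-array median was 0.377, 0.304 or 0.219 for the strongly male-biased class and -0.232, -0.168 or -0.177 for the strongly female-biased class. With 14 arrays these medians kept their signs but were smaller, from 0.0477 to 0.12 and from -0.0423 to -0.00939. The median of the class with little sex bias was -0.0449 with 17 arrays and changed sign after scaling, to 0.0235.

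The same classes separated the narrow from the other mated arrays. Between these 2 sets of mated arrays the median difference, narrow minus other, was 0.555 for the strongly male-biased class, -0.398 for the strongly female-biased class and -0.0511 over all transcripts. The difference also followed the level of a transcript. Over 5 equal bins of level in Punta Prieta virgin females, from dim to bright, the median 17-array difference was 0.214, 0.301, -0.134, -0.214 and -0.116. With 14 arrays these medians were 0.037, 0.0455, -0.0395, -0.0384 and -0.0105. Array spread, sex-biased level and mating state moved together on the narrow arrays, and the part each had in the class medians was not tested.

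Punta Prieta agria females gave the same comparison in 5 mated and 11 virgin arrays, none of which enters the Las Bocas comparison. These virgins are also those that gave the sex bias classes and the bins of level. There 362 transcripts passed (2.49%), 191 higher (1.31%) and 171 lower (1.18%). Of the 30 Las Bocas rises, 29 were above 0 in Punta Prieta and 24 passed as higher, which is 80% of the Las Bocas rises and 12.6% of the Punta Prieta rises. Their median was 0.988 there, against -0.0166 over all transcripts. For the 24 called in both populations the ratio of the Las Bocas to the Punta Prieta difference had a median of 1.04 (0.631 to 1.79). The other 6 had differences of -0.0166 to 0.347 in Punta Prieta. Of the Punta Prieta virgins, 14 day replicate 1 was also narrow. Without it 337 transcripts passed there (2.32%), 180 higher (1.24%), and 23 of the 30 Las Bocas rises were among them.

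No fall passed in Punta Prieta. Of the 11, 6 were above 0 and 5 below, 0 passed, and their median was 0.019. FBtr0169904 differed by 0.27 (SE 0.253, adjusted p = 0.71 in limma) and FBtr0165557 by 0.19 (SE 0.191, adjusted p = 0.741). For FBtr0169904 the Punta Prieta virgins, from 8.37 to 9.96, lay mostly below the Las Bocas virgins, and the mated arrays ran from 8.83 to 10.28. The difference between the populations was tested over all transcripts, and 0 passed (0%; limma, 4836 at an unadjusted p below 0.05, smallest adjusted p 0.103). All 11 falls were more negative in Las Bocas, with a median difference between populations of -0.838. The 11 were chosen for low differences in these same Las Bocas arrays. That choice favours this direction, here and without the narrow arrays, so figures for the list are a description. FBtr0169904 stood at -1.37 (SE 0.325, adjusted p = 0.103). Without the 3 narrow arrays and 1 narrow virgin array of Punta Prieta, 0 passed as well, with 696 at an unadjusted p below 0.05 and a smallest adjusted p of 0.896. Of the 11 falls, 10 were then more negative in Las Bocas, with a median of -0.553, and FBtr0169904 stood at -1.02.

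**Figure D4:**
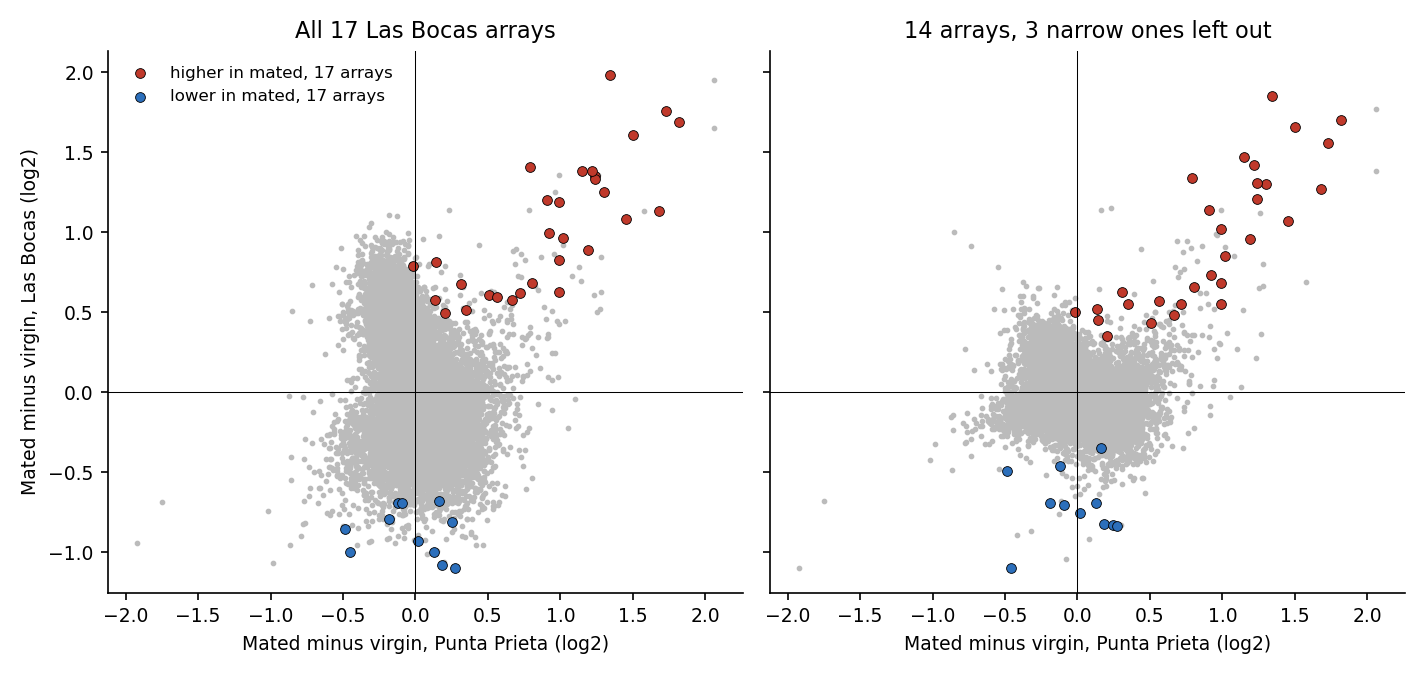
Mated minus virgin difference (log2) of each of 14528 transcripts (grey) in agria females of Punta Prieta (horizontal) and Las Bocas (vertical), with all 17 arrays on the left and 14 on the right. Transcripts called in the 17-array fit are coloured. The 30 rises (red) lie above 0 on both axes in all but 1 case, the 11 falls (blue) scatter around 0 on the horizontal axis, and the grey cloud is shorter in the vertical direction without the narrow arrays.

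The Punta Prieta calls were also read in Las Bocas. Of the 191 transcripts that rose in Punta Prieta, 161 (84.3%) were above 0 in Las Bocas with 17 arrays and 169 (88.5%) with 14, against 45.2% and 47.2% of all transcripts. Of the 171 that fell there, 170 were below 0 in Las Bocas with 17 arrays and 162 with 14, against 7963 and 7667 of all 14528, and 0 of them passed. The 20 largest Punta Prieta rises had a median of 1.28 in Punta Prieta and of 1.28 in the 14 Las Bocas arrays, where all 20 were above 0 and 18 exceeded 0.5. With 17 arrays 12 of these 20 passed. Over all transcripts the differences of the populations were barely related (Pearson r across transcripts -0.19 with 17 arrays and -0.0753 with 14, and 0.0355 and 0.0815 without the narrow Punta Prieta virgin). Transcripts are not independent replicates.

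Punta Prieta females reared on organ pipe (7 mated, 11 virgin arrays) gave 35 calls (0.241%), 34 higher (0.234%) and 1 lower (0.00688%). All 30 Las Bocas rises were above 0 there with a median of 0.784, and 8 passed, which is 26.7% of the Las Bocas rises and 23.5% of the organ pipe rises. These 8 passed in all 3 female comparisons. FBtr0164828 was among them, with a rise of 1.09 (SE 0.206, adjusted p = 0.0339 in limma). Of the 11 falls, 9 were below 0 and 0 passed, with a median of -0.136. The correlation across transcripts with the organ pipe differences was 0.179 with 17 arrays and 0.377 with 14.

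In Las Bocas agria males (5 mated, 11 virgin arrays) 53 transcripts passed (0.365%), 48 higher (0.33%) and 5 lower (0.0344%). Of the 30 female rises, 17 were above 0 and 13 below in males, with a median of 0.0681, and 2 passed. Of the 11 female falls, 10 were below 0 with a median of -0.215, and 2 passed. The 4 shared calls, named after their values were seen, were FBtr0161296 (0.62 in females, 0.4 in males) and FBtr0169644 (0.68 and 0.63) among the rises, and FBtr0174510 (-1 and -1.33) and FBtr0174789 (-0.93 and -0.82) among the falls. With 14 arrays the female differences were 0.55, 0.66, -1.1 and -0.76, and none passed.

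Between females and males the mating difference itself passed a test for 23 transcripts (0.158%). The female effect was the higher for 16 (0.11%) and the lower for 7 (0.0482%), with 3336 at an unadjusted p below 0.05 in limma. Of the 30 rises, 13 were among the 16, and all 30 stood above the male effect, by a median of 0.941. The 30 were chosen for a high effect in these same female arrays. That choice favours a female effect above the male one, here and without the narrow arrays, so figures for the list are a description. FBtr0162061 stayed at 8.27 to 8.89 in mated and 8.25 to 9.12 in virgin males, and its effect was larger by 2.05 in females (SE 0.387, adjusted p = 0.0155). FBtr0169070 differed by 0.99 between the sexes (SE 0.163, adjusted p = 0.00717). It rose by 0.96 in females and stood at -0.02 in males. FBtr0167130 went the other way, by -1.25 (SE 0.197, adjusted p = 0.00593). It rose by 0.94 in mated males (adjusted p = 0.00711) and stood at -0.31 in females, where the adjusted p of 0.0799 did not pass. Without the narrow arrays, 2 transcripts differed between the sexes, 1 in each direction, with 270 at an unadjusted p below 0.05 in limma. FBtr0167130 still passed (-1.23, adjusted p = 0.047). FBtr0169070 (0.88, adjusted p = 0.0632) and FBtr0162061 (1.92, adjusted p = 0.196) did not. All 30 rises stayed above the male effect, with a median of 0.872. Leaving out replicate number 1 or 3 of every group gave 0, with an adjusted p of 0.866 or 0.0658 for both named transcripts, and leaving out number 2 gave 494.

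**Figure D5:**
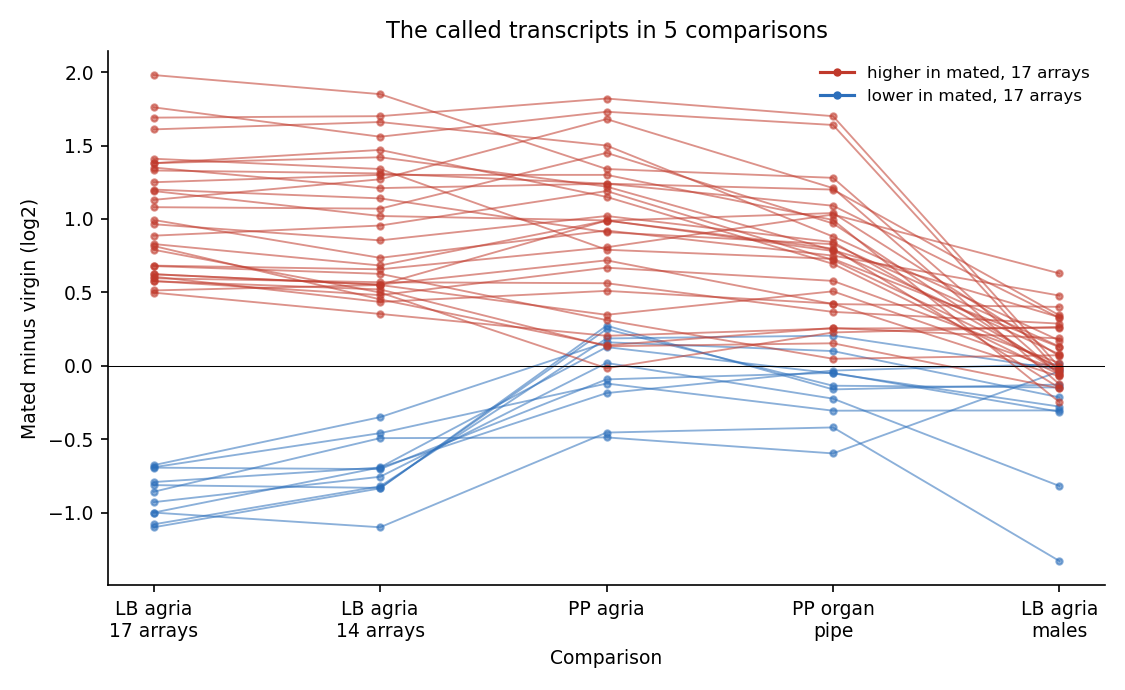
Mated minus virgin difference (log2) of the 41 transcripts called in the 17-array fit, each a line across 5 comparisons. The 30 rises (red) run between 0.353 and 1.85 with 14 Las Bocas arrays, between -0.0166 and 1.82 in Punta Prieta agria females and between -0.248 and 0.629 in Las Bocas males. The 11 falls (blue) run between -1.1 and -0.35 with 14 arrays and between -0.488 and 0.273 in Punta Prieta.

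The rises also tended to vary together among flies that had not mated. Across the 11 Las Bocas virgin arrays the median pairwise correlation of the 30 rises was 0.3, and across the 11 Punta Prieta virgins it was 0.368. For 1453 transcripts taken at even steps down the list it was -0.0139 and 0.0197. Pairs above 0.7 made up 17.9% and 14.3% among the rises, against 7.01% and 10.5% among the 1453. The 1453 were not matched to the rises in sex bias, and the part of sex bias was not tested. For the 11 falls the median correlation was 0.497 and 0.657. With FBtr0162061, 10 of the other 29 rises correlated above 0.7 in Las Bocas virgins (0.75% of all transcripts did) and 8 in Punta Prieta virgins (0.771%). Only 8 transcripts did so in both sets of virgins, and 6 of them were among the rises. FBtr0162051 was 1 of these, at 0.951 in Las Bocas. FBtr0172018 ran against them among the Las Bocas virgins, at -0.716 with FBtr0162061. Virgin arrays of a set differed in development time and may share flies, and neither was adjusted for. These correlations are a description.

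Some of the rises had ID numbers close to each other. FBtr0162061, FBtr0162051, FBtr0162041 and FBtr0162033 fell within 1 stretch from 162033 to 162061, in which the array held 27 IDs. In all, 14 of the 30 rises had another rise within 30 ID numbers. This count was not set against that of other lists of 30 transcripts, so it does not show an uneven spread. Whether near ID numbers stand for near genes or related sequences was not tested, and probes that read more than 1 copy of a related sequence would make such values depend on each other.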

How the data were processed

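RNA from whole flies was hybridised to 1-colour NimbleGen arrays. The authors deposited log2 expression values of 14528 transcripts, made with RMA per the submitters' processing notes. RMA corrects background, usually quantile-normalizes arrays and summarises probes, which compresses differences of dim transcripts. The deposited arrays nonetheless differ in spread, so at the transcript level their distributions are not equal. RMA's version and settings and the annotation behind the IDs are not stated in the labels. Scanner files and slide positions were not analysed here, so slide effects were not tested.

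Arrays were grouped by title. Mated minus virgin differences were fitted with limma (version 3.58.1, R 4.3.3), lmFit and eBayes, on the values as deposited with no filter. Development time was linear, and p-values were adjusted over all transcripts (threshold 0.05). Differences within development times came from 1 mean per group, and differences between populations or sexes from joint fits with a slope for each. A transcript with little sex bias lay within 0.5 log2 or did not pass. The fits were tested on simulated data. Named transcripts were the 2 highest and 2 lowest called per fit and the smallest adjusted p of each difference. Members and lists were chosen with earlier results of these data known. Lists of gene families and cell type markers were not applied, since IDs had no gene names. Alternatives changed the development time term, scaling, weights, filter, prior, spread and arrays.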

Additional observations from a re-analysis of the deposited data

Results flagged for a closer look

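Among 39 sets of values over 4 to 6 arrays of a group, 4 held an array far from the rest of its set, where chance marks about 1 set in 20. The sets share arrays, and FBtr0162061 and FBtr0162041 correlated at 0.948 across the Las Bocas virgins. They are therefore not independent, and 4 of 39 cannot be read as more than chance gives. All 4 flagged sets were of the 4 virgin arrays of 16 days. Replicate 1 had an array SD of 1.77, below the others at 1.8. Replicate 3, whose description gives 15 days, read 11.89 for FBtr0162061 where the others read 13.17 to 13.23, and 12.78 for FBtr0162041 where they read 13.39 to 13.45. Replicate 4 read 10.88 for FBtr0172018 against 10.79 to 10.8. The low values of replicate 3 lie inside the range of the 15 day virgins for both transcripts, and also inside that of the 14 day virgins. Over all transcripts, virgin 16 day replicates 3 and 4 correlated at 0.9939, the highest value within any group. The development time of replicate 3 was not tested.

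A test of the difference between the sexes of the population in their mated minus virgin values passed for 23 transcripts. By the smallest adjusted p in each direction these were FBtr0169070 at 0.99 and FBtr0167130 at -1.25 (female minus male, log2). Without the narrow arrays the count was 2, and FBtr0169070 (0.88, adjusted p = 0.0632 in limma) no longer passed. The count was 0 when replicate number 1 or 3 of every group was left out, and 494 when number 2 was.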

How the results depend on the processing

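The 17-array count of 41 transcripts ranged from 27 to 6586 when 1 array was left out, lowest without mated 14 day replicate 1 and highest without mated 14 day replicate 2. It was 3470 without mated 16 day replicate 2, 2172 without virgin 15 day replicate 4 and 2074 without virgin 16 day replicate 1. Other settings gave 2824 with no development time term, 7663 with array weights, 819 after centring, 1671 after scaling to a common SD, 11 with array SD as a covariate (all higher), 1245 without the dimmest 25%, 2361 with virgin 16 day replicate 3 at 15 days, 2381 with the spread shared by all female arrays, 5 without the narrow arrays and 0 with 16 day arrays only. Development time as categories, quantile normalization, a variance trend and a robust prior gave 38 to 53. Settings chosen after seeing the data gave 5106 (adjusted p below 0.10), 24 (without virgin 15 day replicates 2 and 3) and 4774 (shared spread without Las Bocas organ pipe mated female 16 day replicate 1, which has a male profile and is not among the 17). The 14-array count of 5 ranged from 0 to 6 when 1 array was left out. It was 0 with development time as categories, 1 with no such term, 1 with array weights, 3 with a variance trend, 1 with a robust prior, and 0 with either shared spread. With array weights 9169 passed at 15 days, 5 at 16 days, 1634 between development times, 5428 between populations and 4307 between sexes. Leaving out 1 array gave 0 to 1635 at 14 days, 0 to 5891 at 15 days and 0 at 16 days, and leaving out 1 replicate number gave 0 to 494 between sexes and 0 for the other differences. Without the narrow arrays 2 passed between sexes. The causes were not tested. The 4 transcripts named for the 17-array fit, the 5 for the 14-array fit and the 2 for the difference between sexes kept their direction under the settings run for each. In the 17-array fit FBtr0162061 passed in 31 of 35, FBtr0162051 in 25 of 35, FBtr0169904 in 31 of 34 and FBtr0165557 in 18 of 35. In the 14-array fit, of 29 settings, FBtr0164828 passed in 23, FBtr0162033 in 12, FBtr0172018 in 11, FBtr0162041 in 9 and FBtr0169070 in 6.

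Replicate numbers were not used to pair the arrays in the main fits. Deviations of same-numbered mated and virgin arrays correlated at -0.621 to 0.463. With 2 mated arrays at each development time these values cannot decide whether the numbers pair arrays, and they were not tested. With the replicate number as a block, 12 transcripts passed with 17 arrays (11 higher), 0 with 14, 5186 at 15 days, 12 between sexes and 168 in Punta Prieta, where 362 passed without it.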
